A study of Rattus norvegicus with 6 samples.

Results

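The 10 genes described here encode Kruppel-like factors, a family of DNA-binding proteins: Klf2, Klf3, Klf4, Klf5, Klf6, Klf7, Klf9, Klf10, Klf13 and Klf15. They were chosen by name, and their values are all rows under these symbols in an annotated peak table of chromatin immunoprecipitation and sequencing (ChIP-seq). Of the 10 genes, 9 had rows, 126 of the 159452 in the table, which names 14390 genes. Klf15 had none.

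The study used PC12, a line grown from a rat pheochromocytoma (a chromaffin cell tumour), at passages 18 to 20. The cells stably carried either the pCDNA3 vector alone (labelled EV, the empty-vector line) or human α1ACT, the transcription factor encoded within the CACNA1A transcript (labelled Q11). Each line gave 1 library with M2, an anti-FLAG antibody, 1 with an antibody labelled 1804, and 1 input, so no value has a replicate error and no test between conditions was made. The labels do not say what 1804 recognises, which promoter drives α1ACT or whether a line is a single clone, and the series design speaks of tissues at day 3 where the samples name PC12 cells.

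All 126 peaks come from the α1ACT 1804 library. By its name the authors' table holds α1ACT-only peaks, so the absence of these peaks from the empty-vector lists is fixed by the table. It has 159452 rows, whereas the whole α1ACT 1804 list has 161730 peaks. Why the remaining peaks are missing from it was not examined here. The other lists were short, with 272 peaks for EV with 1804, 244 for EV with M2 and 81 for α1ACT with M2. The nearest peak of any of them lay 1533 kb from a member's transcription start site (TSS), that of Klf3. None of the 126 peaks overlapped an α1ACT M2 peak. That list was short, its lowest signal was 53.6, and 110 of the 126 lay on a chromosome with any M2 peak, so the overlap says little. The authors' signal, given for each peak, has no stated scale between libraries and is used only to rank peaks within the 1804 list. The lowest signal was 2.00 in the α1ACT 1804 list and 14.03 over the 3 short lists. Of the member peaks, 125 had a signal below the latter value and 1 above it; the scale between lists is not stated. Of 12 genes that mark chromaffin-type cells such as PC12, 6 had a peak within 1000 bp of the TSS, among them Th and Chga. Of 10 markers of immune, glial, liver and skin cells 2 did, Gfap and Mbp. A peak near a TSS is no measure of expression.

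Kruppel-like factors bind GC-rich and CACCC sequences through zinc fingers at the C-terminal end, and the rest of the protein sets whether a target rises or falls. Klf2, Klf4, Klf5, Klf6 and Klf7 mostly activate, Klf3 represses through the corepressor CtBP, and Klf9, Klf10 and Klf13 recruit the corepressor Sin3. Several are immediate early genes, switched on within minutes to hours by growth factors, hormones or depolarisation, and in neurons Klf4 and Klf9 hold back axon growth whereas Klf6 and Klf7 promote it.

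Near the TSS, the family divided into genes with 1 to 4 peaks and genes with none. Klf2, Klf4, Klf5, Klf9 and Klf10 had a peak within 1000 bp, 11 peaks in all. Klf3, Klf6, Klf7 and Klf13 had only peaks farther away, and Klf15 none at all. Such a peak was found for 43.2% of all genes in the table, against 5 of the 9 members in it. Over 18533 RefSeq coding genes the share was 32.9%, against 5 of the 10 members (50.0%, exact 95% binomial interval 18.7 to 81.3). The interval, taken over all 10 members, holds both background shares. Over the 5 genes the highest signal near the TSS had a median of 5.46, beside 4.92 over all 6219 genes with a near peak.

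**Figure D1:**
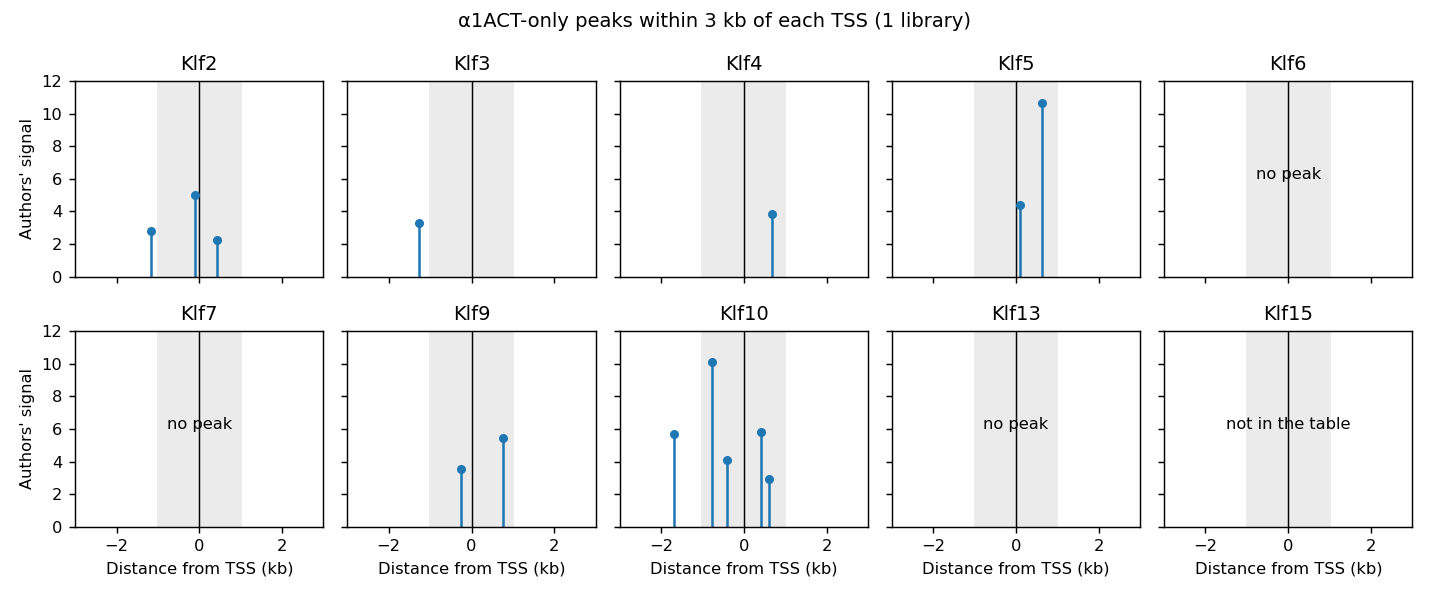
Signal of each α1ACT-only peak (vertical axis, authors' value) against its distance from the TSS (horizontal axis, kb, upstream negative), 1 panel a gene, with the 1 kb on either side shaded. Klf10 has 4 peaks in the shaded part and Klf5 the highest, 10.7, while Klf6, Klf7 and Klf13 have none within 3 kb.

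Among the activators, Klf5 had the highest near peak of all members. Klf5 drives proliferation in epithelia and lies on the plus strand of chromosome 15, from 87216663 to 87231849 (rat build rn5, as are all positions of peaks and of genes below). Its highest peak stood at chr15:87217234-87217289, 626 bp into the gene. The signal there was 10.7, at or above 99.4% of all annotated peaks and 95.9% of those within 1000 bp of a TSS. A second near peak lay 91 bp downstream with a signal of 4.39. Both were annotated as promoter, a class that does not tell exon from intron. A further peak lay in the 3' UTR, with 2.45. Upstream, 4 peaks assigned to Klf5 lay in introns of the neighbouring gene Pibf1, 59.7 to 73.0 kb from the TSS, with signals of 2.43 to 3.74. The second highest Klf5 peak, 7.16, lay 261 kb downstream.

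Klf2, which keeps T cells and endothelium quiescent, had a near peak on each side of its TSS. Its gene lies on the minus strand of chromosome 16, from 19084196 to 19086146. The peak at chr16:19086255-19086310, 109 bp upstream, had a signal of 5.04, at or above 88.6% of annotated peaks. Another, 424 bp downstream within the gene, had 2.24, in the lower part of the list. A peak 1169 bp upstream had 2.80. Of its 9 peaks, 3 lay in the neighbouring gene Eps15l1.

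Klf4, one of the factors that reprogram cells to pluripotency, had 1 near peak and many distant ones. The gene lies on the minus strand of chromosome 5, from 76447643 to 76452001. Its near peak stood at chr5:76451272-76451327, 674 bp into the gene. The signal was 3.87, below the median of 4.36 for all annotated near peaks. Of its 18 peaks 10 lay over 200 kb away. The highest, 4.64, was 63.2 kb upstream.

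Klf6 and Klf7, both known from axon growth, had no peak near the TSS. Klf6 lies on the minus strand of chromosome 17, from 69624951 to 69633946. It was assigned 35 peaks, the most of any member and more than 93.4% of genes in the table, yet each was intergenic and none lay within 50 kb. Only 2.2% of genes in the table had no peak of the 1804 list within 50 kb of the TSS, a limit chosen after the Klf6 values were seen. The stretch without a peak around the gene ran for 122 kb, longer than 98.4% of the gaps between neighbouring peaks in the list. Each gap counts once there, and a long gap covers more of the genome than a short one. The rank is thus not a share of genes. The nearest Klf6 peak, 51.8 kb upstream, had a signal of 2.09, close to the lowest in the list, 2.00. Downstream lay 30 peaks, in dense stretches. Between 175 and 180 kb from the TSS there were 11, and between 253 and 255 kb there were 6, with signals of 2.03 to 4.16 over both. The highest peak of all members, 14.5, lay 540 kb downstream at chr17:69094144-69094199, at or above 99.8% of annotated peaks. The table assigns each peak to its nearest gene, whatever the distance.

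Klf7 was assigned 10 peaks, all intergenic and the nearest 31.6 kb upstream with a signal of 2.20. The highest, 11.4, lay 41.7 kb upstream at chr9:71745450-71745505, at or above 99.6% of annotated peaks, with another of 3.85 beside it at 41.5 kb. The Klf7 transcript in the authors' table is not among the current RefSeq transcripts of the gene, whereas those of the other 8 members in the table are. The table also places Klf7 on the plus strand, from 71787156 to 71834589, whereas RefSeq on GRCr8 has it on the minus strand. The other 5 members with a strand in both sources have the same one. Upstream and downstream of Klf7 are thus the table's. Measured from the other end of the gene, the nearest peak of the 1804 list lay 50.7 kb away, so neither end had a near peak.

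**Figure D2:**
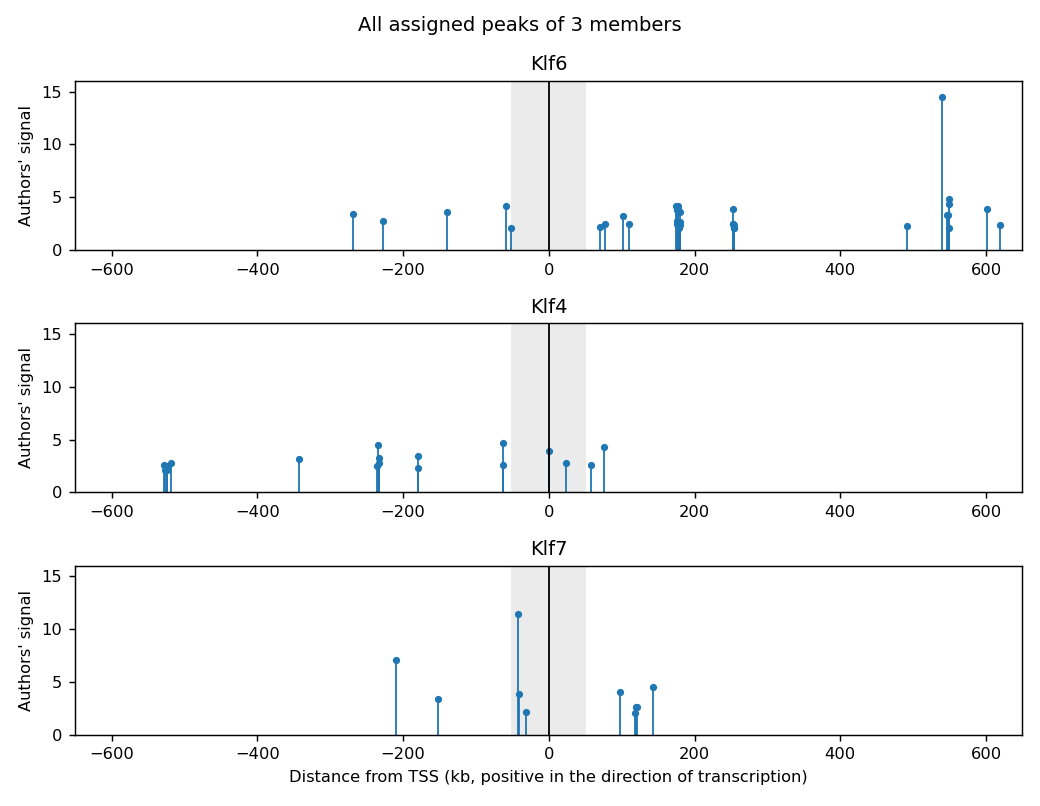
Every peak assigned to Klf6, Klf4 and Klf7, with the distance from the TSS in kb (horizontal axis) and the authors' signal (vertical axis); the 50 kb on either side are shaded. Klf6 has no peak in the shaded part, and its highest, 14.5, stands 540 kb downstream; that of Klf7, 11.4, stands 41.7 kb upstream.

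Among the factors that recruit Sin3, Klf10 had the most near peaks of the 10 members. Klf10, also known as TGF-beta inducible early gene, lies on the minus strand of chromosome 7 from 77258859 to 77265053. It had 4 peaks within 1000 bp, a number reached by 1.01% of genes in the table. Upstream, the peak 762 bp from the TSS at chr7:77265815-77265870 had a signal of 10.1, at or above 99.2% of annotated peaks, and that at 396 bp had 4.07. On the other side, the peaks 406 and 614 bp downstream had 5.82 and 2.95. Another promoter peak lay 1683 bp upstream with 5.71, and a peak labelled as exon 3 of 4 had 5.87. The authors' exon and intron numbers run along the chromosome. In Klf12, also on the minus strand, intron 7 of 7 had a peak 17.3 kb from the TSS and intron 2 of 7 one at 300 kb. For Klf10 the exon number thus counts against the direction of transcription. In all, 7 peaks of the list fell within 10 kb of the TSS, more than at 97.6% of genes, where the median was 1. Farther upstream, 4 peaks stood between 17.3 and 20.4 kb, the highest with 6.87.

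Klf9, which glucocorticoid and thyroid hormone induce in brain, had a near peak on each side of its TSS. The gene lies on the plus strand of chromosome 1 from 248193534 to 248218136. The peak 750 bp downstream, at chr1:248194229-248194284, had a signal of 5.46, at or above 91.1% of annotated peaks, and that 265 bp upstream had 3.57. A peak in intron 1 of 1, 12.3 kb from the TSS, had 2.80.

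Klf13, in contrast to its relatives Klf9 and Klf10, had no peak within 10 kb of its TSS. The gene lies on the minus strand of chromosome 1 from 125883341 to 125914101. Of its 11 peaks, 5 lay in the only intron, 11.8 to 22.7 kb from the TSS, and 6 outside the gene. The highest intronic peak, at chr1:125893368-125893423, had a signal of 6.81, at or above 96.2% of annotated peaks.

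Klf3, the member that binds CtBP, lies on the minus strand of chromosome 14, from 44952288 to 44974726, and was assigned a single peak, at chr14:44975988-44976043. It lay 1262 bp upstream of the TSS, just outside the 1000 bp limit, with a signal of 3.28. Klf15, a regulator of amino acid and glucose use in muscle and liver, had no row. A gene enters the table only as the nearest gene of a peak, so its TSS on rn5 is not known from these data and no distance can be given.

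Counted by signal and number together, Klf5, Klf9 and Klf10 had a near peak in the upper 10% of annotated peaks (a signal of 5.28 or more), 3 of the 9 members in the table, where 19.7% of its genes did. Klf2, Klf5, Klf9 and Klf10 had 2 or more near peaks, 4 of 9, where 15.1% of genes did. By their highest near signal the order was Klf5 (10.7), Klf10 (10.1), Klf9 (5.46), Klf2 (5.04) and Klf4 (3.87). Among all genes with a near peak, Klf5 and Klf10 stood at percentiles 94.1 and 92.5, Klf9 and Klf2 near the middle at 57.1 and 51.7, and Klf4 at 33.3. The order depends on the limit: within 500 bp Klf10 came first with 5.82, followed by Klf2 (5.04), Klf5 (4.39) and Klf9 (3.57), and Klf4 had no peak. With 1 library, the order of neighbours such as Klf5 and Klf10 has no error to be set against.

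**Figure D3:**
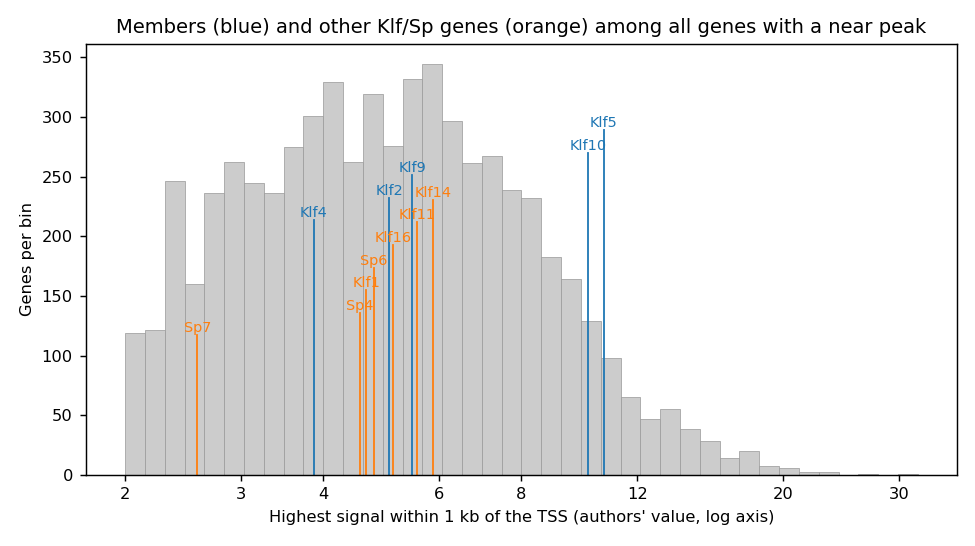
Number of genes (vertical axis) by the highest signal within 1 kb of the TSS (horizontal axis, log scale, authors' value), for the 6219 genes with such a peak; lines mark the members in blue and other Klf and Sp genes in orange, and their heights only separate the names. Klf5 and Klf10 stand on the upper flank and Klf4, Klf2 and Klf9 within the bulk.

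Of the 126 peaks, 11 (8.73%, exact 95% interval 4.44 to 15.1, counting error only) were within 1000 bp of a TSS, beside 5.75% of all annotated peaks, a share inside that interval. Intergenic peaks made up 75.4%, beside 74.6%, and intronic ones 9.52%, beside 16.2%. The median signal of the member peaks was 3.18, beside 3.02 over all annotated peaks. It was 4.39 for the near peaks and 3.00 for the rest, beside 4.36 and 2.99 over all genes. Klf2, Klf5, Klf9 and Klf10 had their highest peak within 1000 bp of the TSS, while the highest of Klf4, Klf6, Klf7 and Klf13 lay 20.7 to 540 kb away. All peaks of Klf2 were within 50 kb, as were 13 of the 16 of Klf10, whereas 26.2% of member peaks lay over 200 kb away, beside 38.4% of all. Downstream of the TSS were 7 of the 11 near peaks and upstream 4. Of all near peaks 66.6% were downstream or over the TSS.

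**Figure D4:**
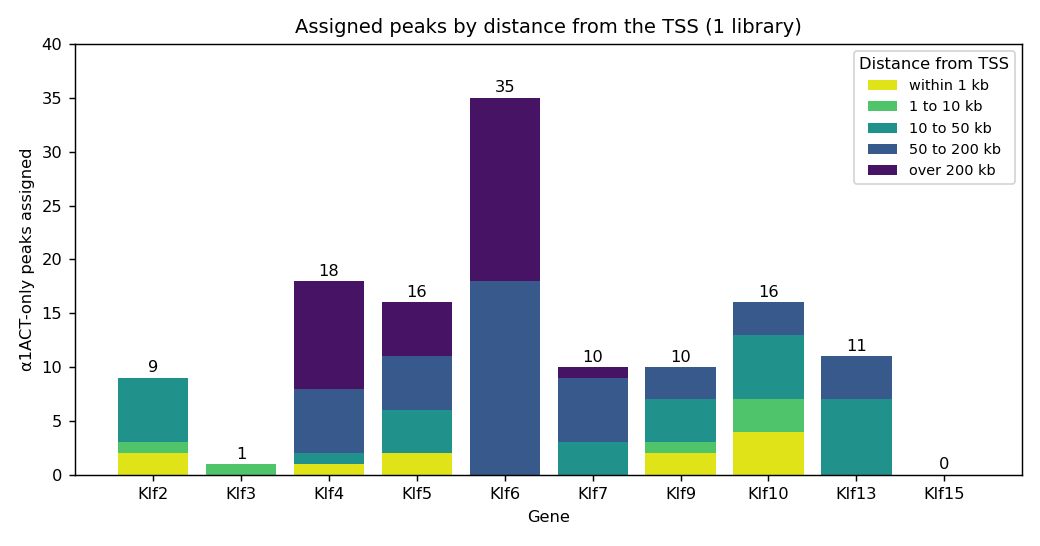
Number of α1ACT-only peaks assigned to each gene (vertical axis), stacked by distance from the TSS, with the total above each bar. Klf6 has the most, 35, all beyond 50 kb, and Klf10 has 4 of its 16 within 1 kb.

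The promoter sequences below are those of 2 members with a near peak, Klf5 and Klf9, and of 2 without, Klf3 and Klf6. Each is the 250 bases before the TSS in RefSeq on build GRCr8, 5′ to 3′ on the gene's strand. They come from another build than the peaks, so peaks cannot be placed on them. Capitals mark the GC box GGGCGG and the CACCC box CCACCC, which Kruppel-like and Sp factors bind, and TGACG, the core of the cAMP response element, each on either strand.

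Klf5 (chr15:82471831-82472080, plus strand): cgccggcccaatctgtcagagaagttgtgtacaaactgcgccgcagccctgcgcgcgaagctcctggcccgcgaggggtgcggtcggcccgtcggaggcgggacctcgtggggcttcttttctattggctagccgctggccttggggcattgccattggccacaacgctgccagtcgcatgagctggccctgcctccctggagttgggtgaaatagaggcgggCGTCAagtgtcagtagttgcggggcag
Klf9 (chr1:230126396-230126645, plus strand): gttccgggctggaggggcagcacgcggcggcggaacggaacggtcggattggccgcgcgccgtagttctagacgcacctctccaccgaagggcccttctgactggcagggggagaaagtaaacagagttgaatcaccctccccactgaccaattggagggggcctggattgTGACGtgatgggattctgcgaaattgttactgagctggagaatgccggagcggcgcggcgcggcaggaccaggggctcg
Klf3 (chr14:43850827-43851076, minus strand): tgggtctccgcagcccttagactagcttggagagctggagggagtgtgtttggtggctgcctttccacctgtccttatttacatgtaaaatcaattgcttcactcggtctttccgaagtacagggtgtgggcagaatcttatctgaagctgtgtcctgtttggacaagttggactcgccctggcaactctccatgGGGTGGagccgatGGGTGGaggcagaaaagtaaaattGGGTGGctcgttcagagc
Klf6 (chr17:69458479-69458728, minus strand): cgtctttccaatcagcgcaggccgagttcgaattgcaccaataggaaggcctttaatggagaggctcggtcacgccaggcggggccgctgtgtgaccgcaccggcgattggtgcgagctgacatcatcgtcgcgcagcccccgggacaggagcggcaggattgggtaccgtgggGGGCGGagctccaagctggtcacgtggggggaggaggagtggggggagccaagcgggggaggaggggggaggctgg

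The Klf5 and Klf9 promoters each held TGACG or its complement CGTCA once, 27 to 23 bases before the TSS in Klf5 and 79 to 75 in Klf9, and neither held a GC or CACCC box in these letters. Klf3 held GGGTGG, the complement of CCACCC, at 3 places within 55 bases of the TSS. Klf6 held GGGCGG once, 76 to 71 bases before it. The promoter table used here held 7 of the 10 members, all but Klf2, Klf10 and Klf13. Over the 7, TGACG was found in 3 (Klf5, Klf9 and Klf15), the GC box in 2 (Klf6 and Klf7) and the CACCC box in 2 (Klf3 and Klf7). Of 27457 promoters of the same length, 1 a gene, 19.0% held TGACG, 32.4% the GC box and 26.6% the CACCC box. Among the 5040 promoters of genes with a near peak these shares were 30.9%, 66.2% and 33.2%. The AT-rich TTATAA was found in Klf4, as in 5.49% of all 27457 promoters, and overlapped there with TATAAA, which 13.1% of all held. The members' promoters had a median GC content of 63.6%, beside 52.0% over all, and ranged from 43.2% in Klf4 to 77.2% in Klf15. A match of letters is not a bound site, and letters outside this window were not searched. The RefSeq TSS was taken as given for every gene, Klf4 included. Where transcription starts farther upstream, the window holds transcribed bases and not promoter.

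Of the 17 other genes of the wider Klf and Sp family, 13 were in the table and 7 had a near peak (41.2%, exact 95% interval 18.4 to 67.1): Klf1, Klf11, Klf14, Klf16, Sp4, Sp6 and Sp7. That share is over all 17, of which 16 were named in RefSeq. Klf18 was not, so it could not be counted as having a peak. The share stands beside 32.9% of coding genes, which lies inside the interval. Among genes in the table it was 7 of 13, beside 43.2% of all genes in the table. The highest was that of Klf14, over the TSS at chr4:58006717-58006772 with a signal of 5.87. Klf11 followed with 5.56 at 276 bp downstream, and Klf16 with 5.11 at 429 bp downstream, the highest of its 4 near peaks. All 3 recruit Sin3 as Klf9 and Klf10 do. None of the 7 reached the near signals of Klf5 and Klf10. Klf12, a repressor that binds CtBP, was assigned 51 peaks, the nearest 13.4 kb upstream. Grouped by cofactor, a grouping made after the values were seen and not tested, 5 of 6 Sin3-recruiting factors had a near peak, Klf13 being the exception. The same was true of 4 of 6 activators (all but Klf6 and Klf7), 0 of 3 CtBP-binding factors (Klf3, Klf8 and Klf12) and 3 of 9 Sp genes. Of the CtBP-binding factors, Klf8 had no row, and the Klf3 peak lay 1262 bp upstream, just outside the limit. Over all coding genes the share was 32.9%, and the difference between these small classes was not tested.

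Genes that act with Kruppel-like factors were followed in a list of 39, of which 33 were in the table and 23 had a near peak. Over all 39 the share was 59.0% (exact 95% interval 42.1 to 74.4), beside 32.9% of coding genes, which lies below the interval. Among genes in the table it was 23 of 33, beside 43.2% of all genes in the table. The list was chosen with earlier results known, and nothing particular to it is read from this. The median of their highest near signal was 4.91, beside 4.92 over all genes with a near peak. Of 14 cofactor genes 9 did, among them Ctbp1, the partner of Klf3, with 10.0 at 401 bp upstream. Sin3a, the partner of Klf9, Klf10 and Klf13, had 2.01 at 569 bp upstream. Of 14 upstream regulators 11 did. Among them was Mef2d, a factor that activates Klf2 and Klf4, with 9.03 at 158 bp upstream. Of 5 genes for Klf turnover only Fbxo32 had one, with 3.19, and of 6 target genes Smad7 and Bcat2, with 2.12 and 5.06. Cdkn1a, the cell cycle inhibitor that Klf4 and Klf6 activate, had its nearest peak 3.04 kb downstream.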

How the data were processed

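ChIP-seq peak lists of 4 precipitated PC12 libraries and 1 annotated table were used; peak lists of the inputs were not analysed here. The signal of each peak and its −log10 q-value are the authors' deposited values, made by them per library; the sources used here do not give the caller, its settings or whether the inputs served as controls. FastQC 0.11.2, BWA 0.7.5a, HOMER, ChIPseeker and DiffBind stand in the submitters' processing notes without roles, as does build rn5. Every peak was 56 bp wide. The deposited table names the nearest gene and the signed distance to its TSS, which runs from the peak's start upstream and from its end downstream, so it is the far edge on the plus strand and the near edge on the minus strand.

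Rows were joined to the 1804 list by chromosome and start (Python 3.11.15, pandas 2.3.3, scipy 1.17.1), with the join tested on simulated data. Near means within 1000 bp. Read depth is unknown. Percentiles count values at or below the one given. Intervals are exact binomial (Clopper-Pearson, 95%). RefSeq names and promoters are those of GRCr8, and all 10 members matched by symbol. Named genes were all members, the family genes with a near peak and the partner genes of highest near signal, of which 1 is not reported here. Members and lists were chosen with earlier results of these data known. Other TSS distances, signal limits, merged peaks and overlap rules were tried, and 1 alternative, the distance from the peak's middle, was added after seeing the data.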

Additional observations from a re-analysis of the deposited data

How the results depend on the processing

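No paired analysis was possible because each group holds 1 library, and for the same reason no replicate could be left out. Across 32 alternatives for the 7 counts and medians, 23 stayed within 1.5 times the reported value. With peaks of the upper 10% by signal only, 3 members (not 5), 4 near peaks (not 11), 16 assigned peaks (not 126), 2 other Klf and Sp genes (not 7) and 10 partner genes (not 23) were counted. In the upper 50%, 65 assigned peaks were. Counting any assigned peak gave 9 members and 13 other family genes, and a limit of 500 bp gave 6 near peaks. Within 500 bp the highest signal fell to 4.39 in Klf5, 3.57 in Klf9 and 5.82 in Klf10, and Klf4 had no peak. These limits hold fewer or more peaks by construction. Within 3000 bp Klf3 joined, making 6 members, beside 52.3% of genes in the table. The 5 members were also counted from the middle of the peak and from the whole 1804 list. Depth is unknown, so a missing peak cannot be told from one too weak to be listed.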

Other observations

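In RefSeq order on GRCr8, 4 of the 10 coding genes nearest to Klf15 were assigned a peak and 0 had one within 1000 bp of the TSS. Over all coding genes the shares were 74.7% and 32.9%, and the difference was not tested. The unbroken run of genes without a peak around Klf15, picked out after the values were seen, was C4h3orf22, Chst13, Aldh1l1, Slc41a3 and Iqsec1. Of these, Aldh1l1 is a folate enzyme gene that marks astrocytes. Chromosome 4 held 7644 annotated peaks, 4.79% of all, a share not set beside the chromosome's length. Whether peaks are few along the whole chromosome, and not only around Klf15, was thus not tested.

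Signals recurred exactly. The 126 member peaks held 96 different values (to 6 decimals), and 6 peaks from 4 members shared 3.18, as did 3588 peaks of the whole table. The −log10 q-value had a ceiling of 3.89, reached by 12 member peaks (9.52%) and 7.08% of all annotated peaks. Peaks that tie in signal cannot be ranked against each other.

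Peaks of the members stood in runs about as often as others: 46.8% had another annotated peak starting within 1000 bp, beside 51.8% of all. The share was 60.0% in Klf6, 56.2% in Klf10 and 18.2% in Klf13.

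Of 5040 promoters of genes with a near peak, 66.2% held the GC box, beside 32.4% of all promoters, and 2.38% held TTATAA, beside 5.49%. The 3 members with a near peak and a promoter sequence, Klf4, Klf5 and Klf9, held no GC box in the 250 bases before the TSS. Klf2 and Klf10, also with a near peak, had no sequence here. With 3 genes, a difference from the share over all cannot be read.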
